A study of Mus musculus with 12 samples.

Results

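The genes described here encode subunits of the mitochondrial respiratory chain and of ATP synthase from the nuclear genome. They were chosen by symbol: genes whose names start with Ndufa, Ndufb, Ndufc, Ndufs or Ndufv (complex I), Sdha to Sdhd (complex II), Uqcr (complex III), Cox4 to Cox8 (complex IV) and Atp5 (ATP synthase, also called complex V). Pseudogenes and the Ndufaf assembly factors were left out, and each gene was read by its probe with the highest mean signal. This gave 78 genes of the 19057 with a probe: 35 of complex I, 4 of complex II, 7 of complex III, 16 of complex IV and 16 of ATP synthase. Of these, 71 passed the detection filter (a detection p-value under 0.05 for 3 or more of the 12 arrays), as did 10629 genes in all. The 7 below it were Ndufs1, Sdha, Cox4i2, Cox6a2, Cox6b2, Cox7b2 and Cox8c.

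RNA from mouse liver cells of the B6 strain, isolated fresh from age-matched males, had been hybridised to 12 Illumina bead arrays. Each group had 3 arrays: normal hepatocytes, fully malignant hepatocellular carcinoma (HCC), and premalignant hepatocytes in an aggregate and a non-aggregate fraction. HCC was induced with DEN (diethylnitrosamine), a carcinogen that hepatocytes activate (its dose and time are not given in the sources used here). For the premalignant cells the labels name no treatment of their own. The sample titles call only the aggregates premalignant, and the word is used here for both fractions. The normal and HCC samples shared a chip and the premalignant samples another, so comparisons within a chip are the main ones. No label ties a replicate to an animal of its own, so the p-values cover the spread between these samples, which may be technical.

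Complexes I and II take electrons from NADH and succinate and pass them through ubiquinone to complex III, cytochrome c and complex IV, which reduces oxygen. Complexes I, III and IV pump protons across the inner membrane, and ATP synthase uses their return to make ATP. Most subunits are encoded in the nucleus and a small core by mitochondrial DNA. Hepatocytes are rich in mitochondria, which also serve their urea, bile acid and fatty acid metabolism.

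Probes detected per array ran from 15354 to 16352 in normal hepatocytes, from 18108 to 19482 in HCC and from 16444 to 17903 on the premalignant chip. Hepatocyte markers were bright in every group: the mean log2 intensity over 8 of them was 12.73 to 12.82 on normal arrays and 12.76 to 12.88 on HCC arrays. Single markers went both ways, with 1 of the 8 called higher and 2 lower in HCC by limma. Markers of other liver cells stood higher in HCC. Over 11 macrophage markers the mean was 5.995 to 6.75 on normal arrays (Marco and Cd5l detected on none) and 7.998 to 8.78 on HCC arrays (Cd5l on none), and 7 of the 10 tested were called higher by limma. The mean of 12 endothelial markers was 6.12 to 7.11 and 8.49 to 9.20, with 11 of 12 called higher. The mean of 12 stellate and fibroblast markers was 5.26 to 5.86 (Lrat, Col1a1, Col1a2, Pdgfrb and Lum detected on no normal array) and 7.41 to 8.04, with 10 of 12 called higher. All 6 T and NK cell markers were detected on no normal array and each on at least 1 HCC array. The mean over the 6 was low, at 4.29 to 4.42 on normal arrays and 4.86 to 5.76 on HCC arrays. Of the 6, 3 passed the detection filter, and 2 of these were called higher. Of 5 bile duct markers, the 2 tested were called higher, while Krt19, Krt7 and Epcam were detected on no HCC array. The 1 red cell marker tested was called lower (-3.28). The part of these other cells in the results on HCC was not tested, and in bulk RNA fewer cells of a type and less RNA per cell cannot be told apart.

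HCC arrays held less RNA of most respiratory chain subunits than normal hepatocytes. Of 71 genes, 55 were lower and 0 higher in HCC (limma, adjusted p below 0.05), while of all genes tested 26% were lower and 23.2% higher. The median log2 change of the 71 was -0.61, against -0.08 over all genes, and single genes ran from -1.39 (Ndufb3) to 0.31 (Uqcrq). The change was negative for 68 genes. In 57 genes every HCC array lay below every normal array, which held for 28.5% of all genes. Restricted to probes with a mean log2 intensity of at least 10, 44 of 57 subunits were lower with a median of -0.55, beside 32.6% of all genes at that level and a median of -0.12. Below that level 11 of 14 subunits were lower, with a median of -0.93 against -0.07 over all such genes. HCC had the lowest mean of the 4 groups for 66 genes, beside 44.5% of all genes. For 51 subunits all 3 HCC arrays lay below all 9 other arrays, beside 18.5% of all genes.

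The share of higher genes among all calls was 47.1% in this comparison, 67.2% with median scaling and 58.8% in the authors' deposited normalized values. Median scaling moved the median change of all genes to 0.14, and cyclic loess and the deposited values moved it to 0.03. The subunits stayed below it each time, with medians of -0.72, -0.46 and -0.48 and 57, 43 and 50 genes lower. Fitted on the 6 HCC and normal arrays alone, 32 were called lower, and 31 of the 55 were past the threshold in all 24 alternative fits.

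**Figure D1:**
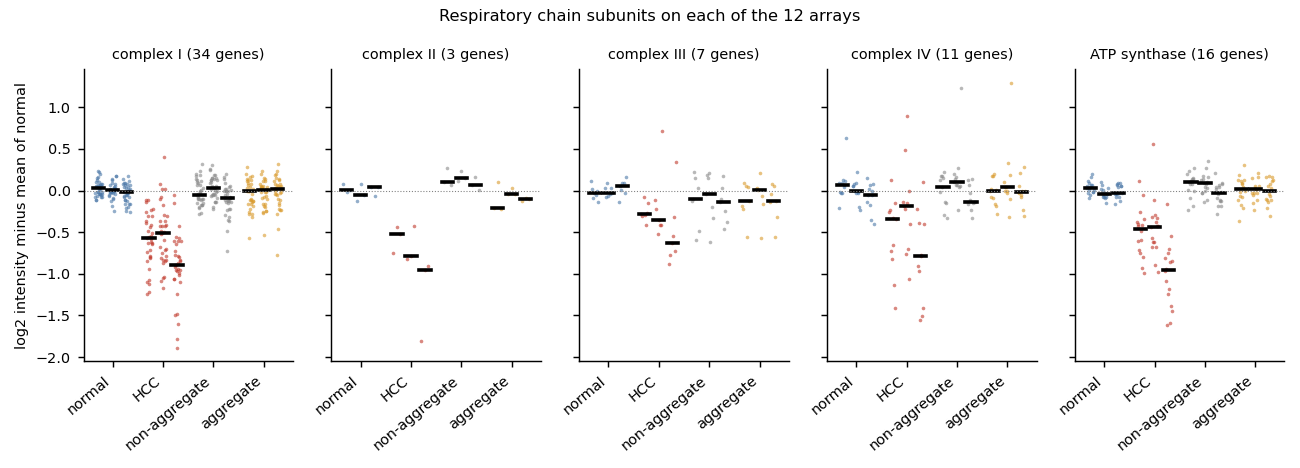
Log2 intensity of each tested subunit gene minus its mean over the 3 normal arrays, on each of the 12 arrays (3 columns of points per group), by complex; each point is a gene and each bar the median of an array. The HCC medians lie below all others in every complex, and the third HCC array lies lowest over all 71 genes, at a median of -0.89.

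Complex I held the largest single change, that of Ndufb3. Of its 34 tested genes, 29 were lower in HCC, with a median log2 change of -0.67. All 34 changes were negative. Its L shape has a matrix arm, where NADH is oxidised, and a membrane arm, which pumps protons. In the matrix arm 14 of 14 genes were lower and in the membrane arm 13 of 18, with medians of -0.66 and -0.62; the arms were not tested against each other.

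In the membrane arm, Ndufb3, an accessory subunit, read 10.70, 10.64 and 10.58 (log2) on the normal arrays and 9.42, 9.47 and 8.86 in HCC. The groups lay more than 1 log2 unit apart, and both premalignant groups, at 10.53 to 10.71, lay far from HCC and close to the normal values. Its level in HCC was 2.62-fold lower, a log2 change of -1.39 (SE 0.16, limma adjusted p = 3.78e-05, n = 3 per group). Ndufb2, its neighbour in the arm, read 10.08, 9.75 and 9.73 in normal hepatocytes and 8.78, 8.80 and 7.96 in HCC, where the third array lay far below the other 2. It was 2.53-fold lower, a log2 change of -1.34 (SE 0.22, limma adjusted p = 0.000363). Ndufb11, Ndufb7 and Ndufb10, accessory subunits of the same arm, were also lower by at least 1 on the log2 scale, at -1.16, -1.15 and -1.01.

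In the matrix arm, Ndufa5, an accessory subunit, read 11.55, 11.39 and 11.60 in normal hepatocytes and 10.27, 10.43 and 10.02 in HCC. It was 2.42-fold lower (log2 change -1.28, SE 0.15, limma adjusted p = 3.41e-05). Ndufv1, the core subunit that binds NADH and the flavin, read 12.57, 12.67 and 12.24 and then 11.98, 11.65 and 11.39. Its groups were apart by less, at 1.76-fold lower (log2 change -0.82, SE 0.17, limma adjusted p = 0.00179). The smallest called change of complex I was Ndufv3, a regulatory accessory subunit, at -0.38. The call for Ndufv3 was lost in several fits, among them the one without the third HCC array (-0.26, adjusted p = 0.156). Ndufs1, the largest iron-sulphur subunit of this arm, was detected on 0 of 12 arrays by its probe, so no change was measured.

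Ndufa4, named for complex I and later found with complex IV, had narrow groups: 13.87, 13.92 and 14.00 in normal hepatocytes and 13.09, 13.12 and 13.04 in HCC. It was 1.80-fold lower (log2 change -0.85, SE 0.11, limma adjusted p = 9.53e-05). The 5 genes of complex I without a call were Ndufb9, Ndufc1, Ndufa8, Ndufa13 and Ndufa1. Ndufa13, also known as GRIM-19, read 13.82 to 13.88 in normal hepatocytes and 13.72 to 13.79 in HCC, a difference of -0.09 (SE 0.11, limma adjusted p = 0.532). Its groups did not overlap, but the difference was within the error of the fit, and its sign turned with cyclic loess (0.15). Ndufb9 had 1 HCC array above the normal range, at 11.34 against 10.14 and 10.06, and was called lower when that array was left out (-0.83, adjusted p = 0.00225).

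**Figure D2:**
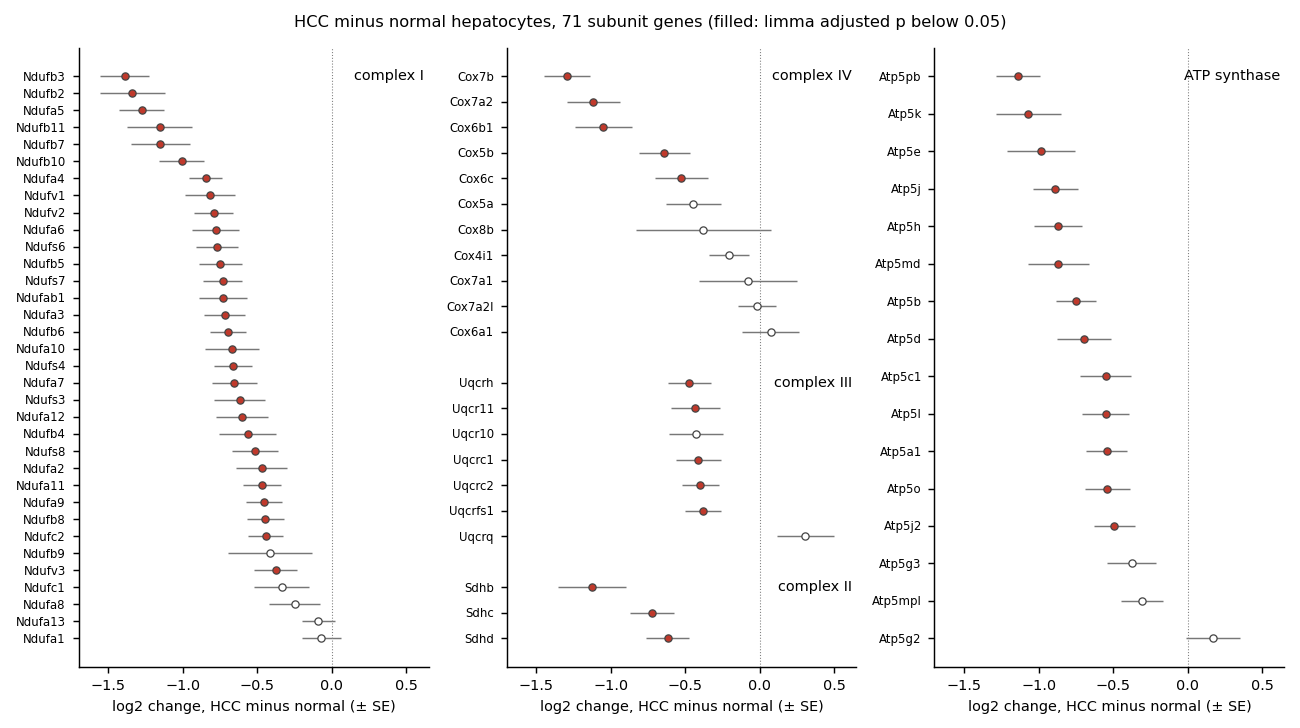
Log2 change of each of the 71 tested genes, HCC minus normal hepatocytes, with its SE, by complex. Filled points have a limma adjusted p below 0.05 and all 55 lie left of 0; the open points at right are Uqcrq, Atp5g2 and Cox6a1.

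Complex II oxidises succinate to fumarate and also belongs to the tricarboxylic acid cycle. All 3 of its tested genes were lower in HCC, and their arrays did not overlap. Sdhb, the iron-sulphur subunit, read 11.36, 11.16 and 11.33 in normal hepatocytes and 10.53, 10.46 and 9.47 in HCC. The third HCC array lay about 1 log2 unit below the others. Sdhb was 2.18-fold lower (log2 change -1.13, SE 0.23, limma adjusted p = 0.00168), and -0.79 (adjusted p = 0.000747) without that array. The membrane anchor subunits Sdhc and Sdhd were lower by 1.65-fold and 1.54-fold (log2 changes -0.72 and -0.62, SE 0.15 for both, limma adjusted p = 0.00174 and 0.00406). Sdha, the flavoprotein, was detected on 1 of 12 arrays by its probe, a non-aggregate array.

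Complex III had smaller changes, with 5 of 7 genes lower and a median of -0.41. Uqcrh, the hinge protein beside cytochrome c1, read 13.28, 13.32 and 13.25 in normal hepatocytes and 13.02, 12.87 and 12.56 in HCC. It was 1.39-fold lower (log2 change -0.47, SE 0.15, limma adjusted p = 0.0188). Uqcr11, a small accessory subunit, changed by -0.43 (SE 0.17, adjusted p = 0.046), and the core protein Uqcrc1 by -0.41 (SE 0.15, adjusted p = 0.0421). Uqcrc1 was called although its groups overlapped: 1 HCC array, at 11.34, lay inside the normal range of 11.33 to 11.50. The calls of complex III depended on the fit: 0 of 7 were called in a fit of the HCC and normal arrays alone, where the adjusted p of Uqcrh was 0.079. That fit called 18 of 34 genes in complex I, 3 of 3 in complex II, 3 of 11 in complex IV and 8 of 16 in ATP synthase. Processing mattered for complex III on all 12 arrays too. With cyclic loess 0 of its 7 genes were lower, with array weights 1, with the deposited values 3 and with median scaling 5. Without the third HCC array 1 of 7 was called, which was Uqcrfs1 (adjusted p = 0.0228).

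Uqcrfs1, the Rieske iron-sulphur protein, had a dim probe. It was detected on all 3 normal arrays (4.98, 4.99 and 5.12), on 2 of 3 HCC arrays (4.62, 4.62 and 4.71) and on no premalignant array. Its change of -0.38 (SE 0.12, limma adjusted p = 0.0182) lies close to background and was not called with median scaling (adjusted p = 0.499). Uqcrq, a small subunit that contacts cytochrome b, read 7.29, 7.40 and 7.59 in normal hepatocytes and 7.28, 8.15 and 7.78 in HCC. The groups overlapped, and the difference of 0.31 (SE 0.19, adjusted p = 0.209) was not called. Median scaling made it 0.60 (adjusted p = 0.0401), and leaving out the first HCC array gave 0.53 (adjusted p = 0.0173).

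Complex IV, cytochrome c oxidase, had the most genes without a call: 5 of 11 were lower, and the median was -0.45. Cox7b, a small membrane subunit, read 8.90, 8.59 and 8.87 in normal hepatocytes and 7.38, 7.72 and 7.38 in HCC. Here the third HCC array did not stand below the others. Cox7b was 2.45-fold lower (log2 change -1.29, SE 0.15, limma adjusted p = 3.7e-05). Cox7a2, the isoform of subunit VIIa used in liver, read 9.56, 9.47 and 9.44 and then 8.35, 8.78 and 7.98, and was 2.17-fold lower (log2 change -1.12, SE 0.18, limma adjusted p = 0.000296). Cox6b1, which faces the intermembrane space, changed by -1.05, Cox5b by -0.64 and Cox6c by -0.53. The call for Cox6c was lost without the third HCC array (adjusted p = 0.0964).

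Cox4i1, the ubiquitous isoform of subunit IV, read 13.10 to 13.32 in normal hepatocytes and 12.98 to 13.10 in HCC, a difference of -0.20 (SE 0.14, limma adjusted p = 0.23). Cox6a1, the liver isoform of subunit VIa, read 13.11, 13.14 and 13.16 in normal hepatocytes but 13.26, 13.63 and 12.74 in HCC. The HCC arrays lay on both sides of the normal ones, with a difference of 0.07 (SE 0.19, adjusted p = 0.771) that turned to -0.12 with median scaling. Cox7a2l differed by -0.02 (SE 0.13, adjusted p = 0.918). The sign of Cox7a2l turned with cyclic loess (0.09) and in the deposited values (0.11).

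The isoforms of complex IV known from heart and muscle were dim. Cox7a1 was detected on all 12 arrays, at 5.64 to 6.23 in normal hepatocytes and 5.21 to 6.89 in HCC. Its difference of -0.08 (SE 0.33, limma adjusted p = 0.861) turned to 0.43 with median scaling. Cox6a2 was detected on 2 of 3 HCC arrays and on no array of another group: the HCC arrays read 4.44, 6.16 and 4.64, and the normal ones 4.25, 4.29 and 4.38. Against the lowest signal of detected probes this is at least 1.15-fold higher, and 1 HCC array holds most of it. Cox8b was detected on 1 normal array, 1 non-aggregate array and 1 aggregate array. Cox4i2 and Cox8c were detected on none. Of 8 muscle and brown fat markers, 5 were undetected in normal hepatocytes (Ckm, Acta1, Tnnt3, Ucp1 and Adipoq) and 4 in HCC (the same without Adipoq). The 3 others passed the detection filter: Myh7 was called lower in HCC (-1.19, SE 0.21, limma adjusted p = 0.000709), and Mb (-0.17) and Cidea (1.38, SE 1.08) were not called.

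In ATP synthase 13 of 16 genes were lower in HCC, with a median of -0.62. All 5 tested genes of the F1 head, which makes ATP, were lower, as were all 4 of the peripheral stalk, which holds the head still; their medians were -0.69 and -0.88. Of the membrane part, with the ring that turns as protons pass, 4 of 7 were lower and the median was -0.49. These parts were not tested against each other.

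Atp5pb, subunit b of the stalk, read 11.15, 11.17 and 11.12 in normal hepatocytes and 10.16, 10.17 and 9.70 in HCC. The normal arrays lay close together, and both premalignant groups, at 11.14 to 11.31, lay close to them. Atp5pb was 2.20-fold lower (log2 change -1.14, SE 0.15, limma adjusted p = 6.63e-05). Atp5k, subunit e of the membrane part, which takes part in pairing the enzyme into dimers, read 6.71, 6.45 and 6.46 and then 5.61, 5.86 and 4.95, and was 2.10-fold lower (log2 change -1.07, SE 0.22, limma adjusted p = 0.00174). Atp5b, the catalytic beta subunit, read 14.44, 14.48 and 14.22 and then 13.78, 13.70 and 13.41, and was 1.68-fold lower (log2 change -0.75, SE 0.14, limma adjusted p = 0.000803). The 3 genes without a call were Atp5mpl (-0.31) and the c ring genes Atp5g2 and Atp5g3, which encode the same ring peptide. These were not tested against the called genes. Atp5g2 read 9.93, 10.03 and 10.10 in normal hepatocytes and 10.13, 10.58 and 9.86 in HCC (0.17, SE 0.18, adjusted p = 0.457), and turned to -0.02 without the second HCC array. Atp5g3 read 14.60 to 14.75 and then 14.42, 14.56 and 13.93 (-0.38, SE 0.16, adjusted p = 0.0757), with no overlap. It was called lower with median scaling (-0.61, adjusted p = 0.0375). Atp5g1, Cox8a and Ndufa4l2 were not analysed here.

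**Figure D3:**
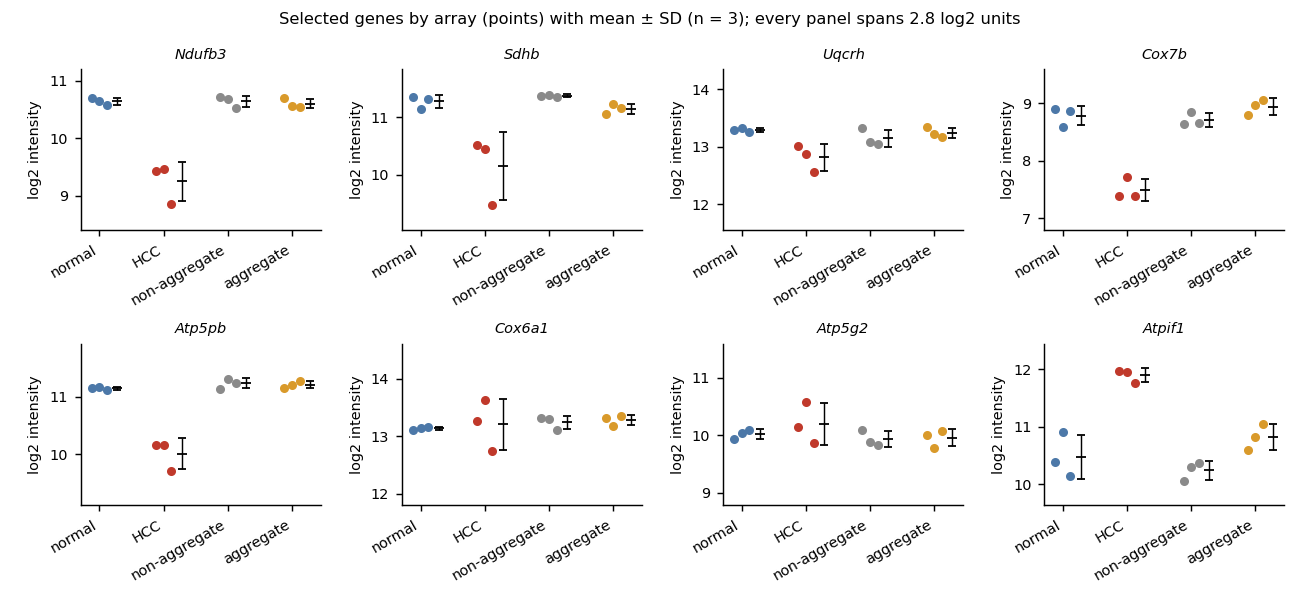
Log2 intensity of 8 genes on each array (points) with the mean and SD of each group (n = 3). Ndufb3, Sdhb, Uqcrh, Cox7b and Atp5pb have all HCC points below the other 3 groups, Cox6a1 and Atp5g2 have HCC points on both sides of the normal ones, and Atpif1 has all HCC points above.

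The subunits varied little between arrays outside HCC. The median SD between the 3 arrays of a group was 0.08 (log2) in normal hepatocytes, 0.09 in non-aggregates and 0.08 in aggregates, beside 0.22, 0.15 and 0.16 over all genes. In HCC it was 0.28, beside 0.26 over all genes. Among bright genes (a mean log2 of at least 10) the subunits had 0.08 in normal hepatocytes and 0.26 in HCC, and all such genes 0.16 and 0.27. The fit pools these spreads over the groups, so it takes less spread for HCC than its own arrays show; with the spread of the HCC and normal arrays alone, 32 of 71 were called.

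The third HCC array carried part of this spread. It was the lowest HCC array for 61 genes, the first for 8 and the second for 2. Relative to the normal mean, the median over the 71 genes was -0.49, -0.43 and -0.89 on the 3 HCC arrays, while the median over all genes was -0.05, -0.08 and -0.07. The third array also had the most probes detected, 19482. Without it 45 genes were lower with a median change of -0.42. On the first and second HCC arrays, 66 and 59 of 71 genes lay below all normal arrays, and on the third 68, while of all genes 39.1%, 41.8% and 41.7% did.

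Several members had more than 1 probe above the filter. Among 26 such genes, 0 had probes called in opposite directions in HCC, 8 had some probes called and some not, and 25 had all probes on the same side of 0. For Ndufs4, of the matrix arm, the probe used gave -0.66 and another -0.45, both called, while others gave -0.32 and -0.20 without a call. Sizes differed as well: the probe used and the other one gave -1.05 and -0.46 for Cox6b1, but -1.01 and -1.53 for Ndufb10.

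Promoters of the subunits are shown because the genes moved together and because NRF1 and GABP (also called NRF2) are known activators of respiratory chain genes. RefSeq promoters (GRCm38.p6, the 250 bases before a start) matched 65 of the 78 genes, with 70 promoters. The NRF1 motif searched, GCGCANGCG on either strand, was present in 14 of 70 (20%) and in 5.16% of 32851 promoters of all genes. It was present in 10 of 55 promoters (18.2%) of genes lower in HCC and in 3 of 12 (25%) of those without a call. Counted by gene, these are 13 of 65, 9 of 50 and 3 of 12, since Ndufa5 has 2 overlapping promoters that hold the same match. The GABP motif CCGGAAGT was present in 3 of 70 (4.29%), beside 2.88% of all. The YY1 motif AAGATGGCG was found in 1 of 70, beside 0.606% of all, and the ERR motif TCAAGGTCA also in 1 of 70, beside 0.387%. None of these motifs contains another. The gene with the largest fall, Ndufb3, has no match to NRF1 or GABP, and the 3 largest falls with an NRF1 match were those of Ndufa5, Atp5k and Atp5h, subunit d of the stalk. Atp5g2 has an NRF1 match without a fall.

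The promoters below run 5′ to 3′ on the gene's strand and end at the base before the start; capitals mark NRF1 matches and, in Atp5h, also a GABP match on the opposite strand. In Atp5k and Atp5g2 matches on both strands overlap, shifted by 1 base, so 10 letters are in capitals. The NRF1 matches begin at position -26 in the Ndufa5 promoter shown (-190 in its other one, chr6:24527527-24527776, not shown), -50 in Atp5k, -141 in Atp5h and -42 in Atp5g2, counted back from the start, and the GABP match in Atp5h at -39.
Ndufb3 (chr1:58586147-58586396, plus strand): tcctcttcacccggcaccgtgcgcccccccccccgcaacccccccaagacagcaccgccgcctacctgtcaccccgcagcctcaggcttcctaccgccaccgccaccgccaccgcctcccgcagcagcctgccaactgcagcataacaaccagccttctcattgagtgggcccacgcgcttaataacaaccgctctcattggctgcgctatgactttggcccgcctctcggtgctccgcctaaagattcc
Ndufa5 (chr6:24527691-24527940, minus strand): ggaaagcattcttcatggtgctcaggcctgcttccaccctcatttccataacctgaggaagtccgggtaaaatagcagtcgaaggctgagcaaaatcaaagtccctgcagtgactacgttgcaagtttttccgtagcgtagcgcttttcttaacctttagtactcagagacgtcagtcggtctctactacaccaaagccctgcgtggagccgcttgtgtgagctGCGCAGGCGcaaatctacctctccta
Atp5k (chr5:108434400-108434649, minus strand): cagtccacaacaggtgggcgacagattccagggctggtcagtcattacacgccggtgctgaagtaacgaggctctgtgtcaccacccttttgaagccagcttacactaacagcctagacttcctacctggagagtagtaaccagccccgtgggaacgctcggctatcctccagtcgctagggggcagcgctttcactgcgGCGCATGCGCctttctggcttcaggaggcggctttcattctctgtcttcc
Atp5h (chr11:115419920-115420169, minus strand): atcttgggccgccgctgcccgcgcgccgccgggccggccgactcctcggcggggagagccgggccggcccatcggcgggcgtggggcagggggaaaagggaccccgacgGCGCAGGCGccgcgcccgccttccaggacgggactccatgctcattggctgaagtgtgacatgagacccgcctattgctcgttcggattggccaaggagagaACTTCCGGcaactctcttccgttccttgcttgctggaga
Atp5g2 (chr15:102671048-102671297, minus strand): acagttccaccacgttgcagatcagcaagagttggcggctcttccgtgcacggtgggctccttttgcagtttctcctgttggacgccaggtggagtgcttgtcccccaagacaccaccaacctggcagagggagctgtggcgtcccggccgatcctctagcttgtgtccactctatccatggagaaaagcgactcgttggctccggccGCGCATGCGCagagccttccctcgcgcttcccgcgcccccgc
No match says only that these letters are not in the window, and a match was not tested for binding.

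No subunit was called between aggregate and non-aggregate premalignant hepatocytes. Of 71 genes, 0 were called in either direction by limma, and 0 reached an unadjusted p below 0.05, while 79 genes of all tested (0.743%) were called, every one higher in aggregates in this fit, and 7.2% had an unadjusted p below 0.05. The median change was -0.02, against -0.03 over all genes, and single genes ran from -0.22 (Sdhb) to 0.23 (Cox7b). This does not show that the levels were equal. In this fit, which does not pair the arrays, the 95% interval of the difference lay within 0.58 on either side of 0 for 64 of 71 genes. The widest, for Cox8b, ran from -0.91 to 1.07.

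Complex II had the lowest median of the complexes, -0.20, and its 3 tested genes were below without overlap. Every aggregate array lay below every non-aggregate array for 6 of all 71 subunits, near the share of 8.15% of all genes. For 4 subunits every aggregate array lay above. Sdhb read 11.38, 11.40 and 11.35 in non-aggregates and 11.07, 11.23 and 11.16 in aggregates (-0.22, SE 0.23, limma adjusted p = 1). Sdhc read 11.84, 11.79 and 11.72 and then 11.67, 11.60 and 11.48 (-0.20, SE 0.15, adjusted p = 1), and Sdhd differed by -0.20 (SE 0.15, adjusted p = 1). None passed the test. Of the genes of other complexes named by rule, Ndufb11, of the membrane arm of complex I, differed by -0.20 (SE 0.22), Cox7b by 0.23 (SE 0.15), Uqcrq by 0.19 (SE 0.19) and Ndufa8, of the membrane arm, by 0.17 (SE 0.17), each with an adjusted p of 1.

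Aggregate and non-aggregate arrays that share a number varied together, so the change was also taken within each number. The median over the 71 genes was -0.03, -0.08 and 0.06 in replicates 1, 2 and 3, beside -0.03, -0.02 and -0.03 over all genes, so the pairs differ in direction. Of 71 genes, 14 were lower and 9 higher in all 3 pairs, beside 26.5% and 19.6% of all genes. The 3 tested genes of complex II were among the 14: the differences were -0.31, -0.17 and -0.19 for Sdhb, -0.17, -0.19 and -0.24 for Sdhc and -0.28, -0.20 and -0.11 for Sdhd. With the replicate number as a block, 0 of 71 genes were called and 0 had an unadjusted p below 0.05. With the block and only these 6 arrays fitted, the SE of a subunit had a median of 0.08, against 0.16 in the fit above. Then 0 of 71 were called and 3 had an unadjusted p below 0.05, namely Sdhb, Sdhc and Cox7b (limma adjusted p = 0.193, 0.205 and 0.236), while of all genes 20.8% had one, 448 were called higher and 43 lower. Other cell types differed between these groups as well: 2 of 10 tested macrophage markers, 4 of 12 endothelial and 3 of 12 stellate and fibroblast markers were higher in aggregates, with mean log2 levels of 7.18 to 8.44 against 5.86 to 6.79 for the macrophage markers. Their part here was not tested.

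The change in HCC differed from the change in aggregates for 25 of 71 subunits, all more negative in HCC (limma, test of the difference between the changes), beside 10% of all genes more negative and 10.9% less. Of these, 17 belonged to complex I, 0 to complexes II and III, 3 to complex IV and 5 to ATP synthase. With the replicate block there were 28. Each of these changes is taken within its own chip. Cox7b differed most, at -1.53 (SE 0.21, adjusted p = 0.000708), since it was lower in HCC and 0.23 higher, without a call, in aggregates. Ndufb3, Ndufa5, Ndufb2 and Ndufb7 followed at -1.35, -1.31, -1.24 and -1.19.

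**Figure D4:**
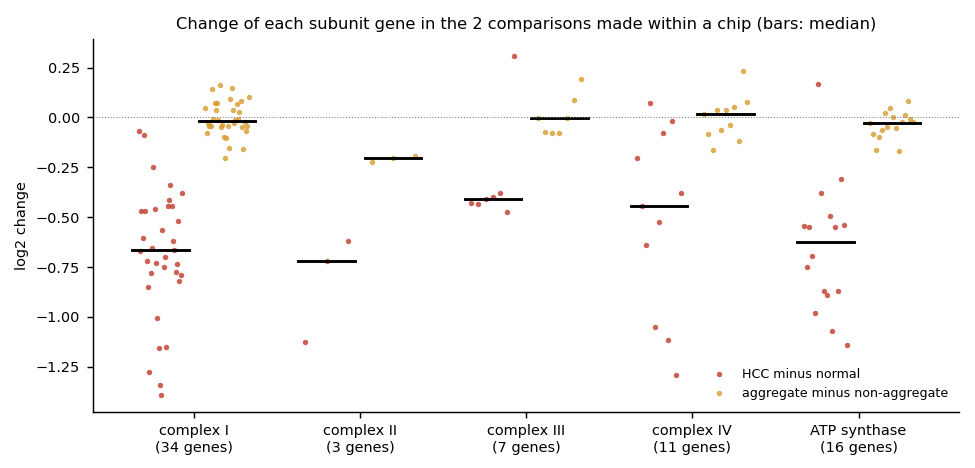
Log2 change of each subunit gene in HCC against normal hepatocytes (red) and in aggregate against non-aggregate cells (orange), by complex; bars are medians. The orange points stay between -0.22 and 0.23, while the red ones run from -1.39 to 0.31.

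Across the chips, where chip and group cannot be told apart, the median subunit change of premalignant cells against normal hepatocytes lay near 0. It was 0.00 for non-aggregates, with single genes from -0.56 to 0.26, and -0.01 for aggregates, with single genes from -0.56 to 0.33. This does not show that the levels were equal. In each case 1 gene was called, Uqcrfs1, which was lower (background 0.715% and 1.71% lower). Its probe was undetected in both premalignant groups, so it was at least 1.20-fold and 1.26-fold lower, and the measured means were 5.03 in normal hepatocytes, 4.48 in non-aggregates and 4.47 in aggregates. Against HCC, 50 of 71 subunits were higher in aggregates and 0 lower (17.6% of all genes higher). In non-aggregates 49 were higher (23.8% of all genes), and 1 was lower (21.8% of all genes): Uqcrq, whose mean was 7.04 in non-aggregates and 7.74 in HCC (-0.70, SE 0.19, limma adjusted p = 0.0107). These comparisons share the HCC or normal arrays with the one above.

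Genes around the chain were read from lists chosen as background to it. Their counts in HCC stand beside 26% of all genes lower and 23.2% higher. Mitochondrial DNA encodes membrane subunits of complexes I, III, IV and V; 8 of these genes had a tested probe, and 0 were higher and 1 lower in HCC, with a median change of 0.17. COX2, the core subunit that takes electrons from cytochrome c, read 13.28 to 13.53 in normal hepatocytes and 13.64 to 13.74 in HCC (0.29, SE 0.15, limma adjusted p = 0.124). CYTB, the core of complex III, differed by 0.00 (SE 0.12, adjusted p = 0.978). Its probe was very bright, at a mean raw signal of 39658.5. The normalization gives all arrays the same set of values, so a change at the top of the range may not show. ND5 was called lower (-2.05, SE 0.62, adjusted p = 0.0162), but its normal arrays read 9.27, 9.81 and 6.46 and its HCC arrays 6.37, 6.19 and 6.82. The groups overlapped, since the third normal array lay with HCC, and the call was lost without either of the other normal arrays (adjusted p 0.0702 and 0.0723). ND4L, read 11.14, 10.31 and 12.69 in normal hepatocytes, had the third array apart in the other direction.

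Electron carriers and donors outside the complexes were mostly lower: 14 of 19 were lower, 1 was higher, and the median change was -0.69. Prodh, which feeds electrons from proline into the chain, read 10.997, 11.18 and 10.82 in normal hepatocytes and 7.93, 8.48 and 7.73 in HCC, 7.73-fold lower (log2 change -2.95, SE 0.21, limma adjusted p = 6.95e-07). Coq10b and Coq9, which serve the use and synthesis of ubiquinone, changed by -2.52 (SE 0.46, adjusted p = 0.000852) and -1.58 (SE 0.27, adjusted p = 0.000473). Cycs, cytochrome c itself, and Cyc1, the cytochrome c1 of complex III outside the naming rule, were picked out after their values were seen. Cycs read 11.27, 11.30 and 11.44 and then 10.40, 9.80 and 9.53 (-1.42, SE 0.20, adjusted p = 0.000114). Cyc1 changed by -0.55 (SE 0.17, adjusted p = 0.0197), and without the third HCC array by -0.38 (adjusted p = 0.0747).

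Among transporters and regulators of ADP, phosphate and protons, 2 of 6 were lower and 1 higher, near the shares of all genes (26% and 23.2%). The higher gene was Atpif1, the inhibitor that blocks ATP synthase when it runs backwards and that newer nomenclature names Atp5if1. It read 10.39, 10.90 and 10.15 in normal hepatocytes and 11.98, 11.96 and 11.76 in HCC, 2.67-fold higher (log2 change 1.41, SE 0.20, limma adjusted p = 0.000123). It was past the threshold in all 24 alternative fits. Aggregates read 10.60 to 11.05 and non-aggregates 10.05 to 10.38, without overlap, and no gene of this list was called between them in the unpaired fit. Within pairs Atpif1 was higher by 0.55, 0.52 and 0.68, and in the paired fit of these 6 arrays it was called (0.58, SE 0.08, limma adjusted p = 0.024). The outer membrane channels Vdac1 and Vdac3 were lower by -0.53 and -0.48 (log2), and both calls were lost in the fit of HCC and normal arrays alone (adjusted p 0.113 and 0.127).

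Of the assembly factors of the chain, 28 of 44 were lower and 0 higher, with a median of -0.58. Ndufaf1 and Ecsit, which build complex I, changed by -1.24 and -1.23, and Sdhaf3, which serves Sdhb, by -1.22 (limma adjusted p = 8.62e-05, 0.000229 and 3.13e-05). Mitochondrial ribosomal proteins, which make the subunits encoded by mitochondrial DNA, had 49 of 72 lower and 2 higher, with a median of -0.58; Mrpl49 (-1.67), Mrps31 (-1.32) and Mrps22 (-1.30) changed most. In the tricarboxylic acid cycle and pyruvate dehydrogenase 11 of 16 were lower, 0 higher and the median was -0.70, led by Pdhb (-1.46), a subunit of pyruvate dehydrogenase, Fh1 (-1.40), fumarase, and Suclg2 (-1.22), a subunit of succinyl-CoA ligase. Chaperones and proteases had 4 of 13 lower, near the 26% of all genes, and 0 higher. Their median change was -0.50, against -0.08 over all genes. The largest called changes were Trap1 (-1.19), Hspd1 (-0.85) and Clpp (-0.83).

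Regulators of mitochondrial biogenesis had 9 of 19 lower and 0 higher, with a median of -0.40. The deacetylase Sirt1 changed by -1.84 (SE 0.21, limma adjusted p = 3.24e-05), its mitochondrial relative Sirt3 by -1.33 (SE 0.15, adjusted p = 2.29e-05) and the mitochondrial transcription factor Tfb2m by -1.29 (SE 0.21, adjusted p = 0.000326). The best known regulators, picked for that after their values were seen, were not called. Ppargc1a, the coactivator PGC-1alpha, read 5.28, 6.17 and 7.53 in normal hepatocytes and 6.06, 6.24 and 6.56 in HCC (-0.04, SE 0.41, adjusted p = 0.944). Nrf1, whose protein binds the motif above, differed by -0.12 (SE 0.22, adjusted p = 0.677), and Tfam, which packages mitochondrial DNA, by -0.40 (SE 0.18, adjusted p = 0.0879). The signs of Ppargc1a and Nrf1 turned with median scaling (0.38 and 0.21).

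The list of oxygen-regulated respiratory genes went both ways, with 5 of 11 lower and 2 higher, beside 26% and 23.2% of all genes. Its median change was -0.50. Slc2a1, a glucose transporter, read 7.27, 8.32 and 7.95 in normal hepatocytes and 8.75, 9.72 and 9.57 in HCC (1.499, SE 0.29, limma adjusted p = 0.00127). Pdk1, a kinase that inhibits pyruvate dehydrogenase, changed by -1.38 (SE 0.33, adjusted p = 0.00434), and the transcription factor Mxi1 by -1.18 (SE 0.20, adjusted p = 0.000532). Between aggregates and non-aggregates 0 genes of any of these 9 lists were called in the unpaired fit, and 1, Atpif1, in the paired fit of the 6 arrays. The list medians ran from -0.15 to 0.01.

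**Figure D5:**
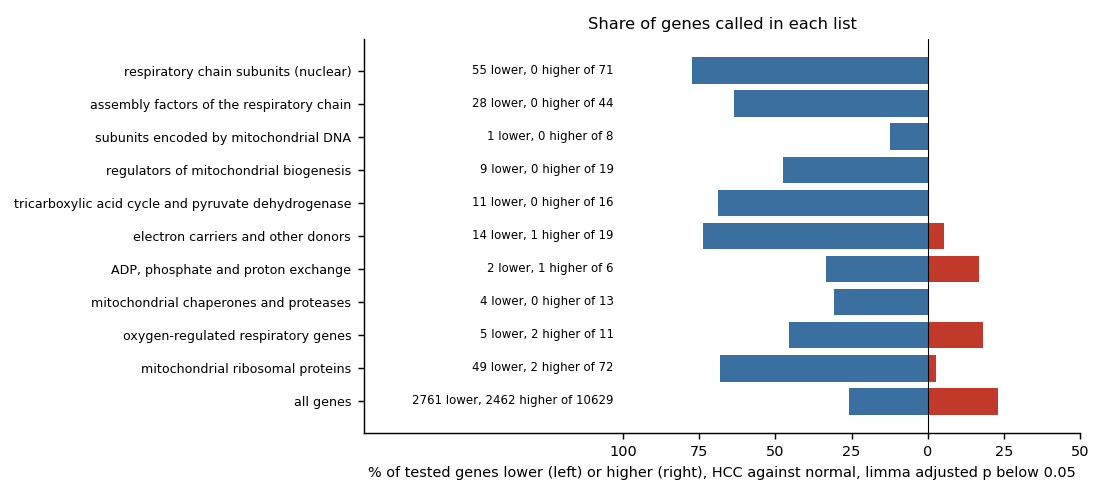
Share of tested genes lower (left) and higher (right) in HCC than in normal hepatocytes (limma adjusted p below 0.05) for the respiratory chain subunits, the 9 lists around them and all genes. The subunits have 55 of 71 lower and 0 higher, and the list encoded by mitochondrial DNA 1 of 8 lower.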

How the data were processed

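RNA of 12 samples was extracted with Trizol and labelled with biotin for Illumina bead arrays, per the labels' protocols. Per the file headers, the table used holds a signal intensity and a detection p-value for every probe on every array. Another deposited table with normalized intensity, made by a method that the sources used here leave unstated, served as an alternative.

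In limma 3.58.1 (R 4.3.3), neqc corrected the background by normexp with an offset of 16, using the detection p-values, then quantile normalized and log2 transformed the deposited signal. Genes detected (p under 0.05) by 3 arrays or more were fitted with limma (lmFit, eBayes, a mean per group over 12 arrays, 2-sided). Adjustment was by the Benjamini-Hochberg method across all 10629 genes, with calls below 0.05. A fold is 2 to the power of the log2 change. Symbols came from the platform annotation (34885 of 45281 probes had 1 gene, 18 several, 10378 were not listed), updated by gene ID through RefSeq (GRCm38.p6), which changed 0 symbols of the subunits. Whether probes also read processed pseudogenes was not checked. The fit was tested on simulated data with the same spread in every group, so that test does not cover the wider spread of HCC.

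The subunits, lists and named-gene rule were chosen with earlier results of these data known. Named were, per complex, the 2 largest called changes in HCC, in aggregates the 3 largest each way, for the difference the 5 largest, a panel of 21 genes whatever their values, and up to 3 called genes per list.

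Replicate numbers are shared between groups. For aggregates and non-aggregates, the deviations of arrays with the same number from their group means correlated at 0.707, 0.542 and 0.639. The main fit, its intervals and the test of the difference between the changes leave this pairing out. Fits with the pairing are given beside them. For HCC and normal hepatocytes the correlations were -0.0123, 0.125 and 0.106. Alternatives were median scaling, cyclic loess, no background correction, separate normalization by chip, the deposited normalized table, no or a stricter detection filter, other probe choices, only the groups compared, array weights, a replicate block, a log2 change of at least 1, and leaving out each array. The number of arrays limits the precision. Figures were made in matplotlib 3.10.9 (Python 3.11.15).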

Additional observations from a re-analysis of the deposited data

Results flagged for a closer look

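The change in HCC differed from the change in aggregates for 25 of 71 subunits by limma's test of the difference, all more negative in HCC. Of all genes tested, 10% were more negative and 10.9% less. The 5 largest differences, as log2 change in HCC minus log2 change in aggregates, were those of Cox7b at -1.53, Ndufb3 at -1.35, Ndufa5 at -1.31, Ndufb2 at -1.24 and Ndufb7 at -1.19. Each of the 5 was lower on all 3 HCC arrays than on any normal array, as were 57 of all 71 subunits and 28.5% of all genes. The 5 were chosen by a difference that includes the HCC change, so this adds no separate support.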

How the results depend on the processing

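Of the 55 subunits lower in HCC, 31 were past the threshold in all 24 alternative fits and 0 changed sign in any. These 24 leave out the threshold of a log2 change of at least 1 and the reading of every probe by itself. The number lower was 32 with only the groups compared and 12 with a log2 change of at least 1. Leaving out each array gave 45 to 59 lower, 0 to 1 higher, and a median change of -0.71 to -0.42, the last without HCC replicate 3. Median scaling gave 1 higher, Uqcrq. For the difference between the changes the number called was 16 with every probe by itself, 7 with a log2 change of at least 1 and 16 to 30 when each array was left out; the lowest came without normal replicate 1, aggregate replicate 2 or non-aggregate replicate 3. The median aggregate change was -0.13 with median scaling. Across chips, the 1 call against normal, Uqcrfs1, was absent (0) for both premalignant groups without background correction, with median scaling, cyclic loess or the deposited values, with detection on all 12 arrays, with only the groups compared and with a log2 change of at least 1. For non-aggregates it was also absent (0) with every probe by itself; leaving out arrays gave 0 to 1 for both. With a log2 change of at least 1, 6 subunits differed between aggregates and HCC and 9 between non-aggregates and HCC.

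With the replicate block, 55 subunits were lower in HCC, 0 were called in aggregates and 28 in the difference; with the block and only the groups compared, 31 were lower in HCC and 24 differed between aggregates and HCC. Against normal, 0 of the non-aggregate calls remained with the block, and 0 with the block and only the groups compared in either premalignant group. Over all genes, calls between aggregates and non-aggregates were 79 higher and 0 lower; they were 111 and 0 with the block, 221 and 3 with only these groups, 448 and 43 with both, 349 and 27 with array weights, and 15 to 149 higher when each array was left out. With only the groups compared, the block moved the calls from 29 higher and 32 lower to 0 and 0 for non-aggregates against normal, from 276 and 121 to 94 and 38 for aggregates against normal, and the subunits called between aggregates and HCC from 37 to 24. Same-numbered HCC and normal arrays share only a number.

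Signs turned, with no call in that setting, for 8 genes named above. With median scaling Cox7a1 was 0.43, Nrf1 0.21, Ppargc1a 0.38 and Cox6a1 -0.12. With cyclic loess Cox7a1 was 0.11, Cox7a2l 0.087, Ndufa1 0.12, Ndufa13 0.15, Nrf1 0.0029 and Ppargc1a 0.089. In the deposited values Cox7a1 was 0.12, Cox7a2l 0.11, Ndufa1 0.036 and Nrf1 0.069, and with array weights Ppargc1a was 0.20. Leaving out each array gave -0.56 to 0.28 for Cox7a1, -0.076 to 0.048 for Cox7a2l, -0.15 to 0.0001 for Ndufa1, -0.14 to 0.31 for Cox6a1, -0.025 to 0.34 for Atp5g2, -0.31 to 0.089 for Nrf1 and -0.57 to 0.56 for Ppargc1a. The cause was not tested. Probes near background, such as those of Uqcrfs1, Cox7a1 and Cox8b, limit what could be seen of these genes.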
